A study of Mus musculus with 9 samples.

Results

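The Nodal and activin signalling genes described here are *Nodal*, *Lefty1*, *Lefty2*, *Tdgf1*, *Gdf3*, *Foxh1*, *Acvr1b*, *Acvr2b*, *Smad2* and *Inhba*. They were taken by symbol from the count matrix, through the Ensembl identifier of each gene, and are 10 of the 54232 genes it lists. Each symbol matched 1 identifier, and their counts in naïve and primed libraries ran from 149 (*Gdf3*, in a primed library at P5) to 22568 (*Tdgf1*, in a naïve library at P5).

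Poly(A) RNA was sequenced from a mouse embryonic stem cell line of C57 x CBA strain in 2 states of pluripotency, with 2 libraries per state at passage 5 (P5) and at passage 15 (P15). Naïve mESCs grew in serum/LIF medium on feeder cells, and primed mEpiSCs were converted from them by culture in F/A medium, which holds basic FGF and added activin A, also on feeder cells. The feeders were mouse embryonic fibroblasts (MEFs) treated with mitomycin C, and 1 further library, without a replicate, was made from MEFs. The methods of the study describe the C57 x CBA line as carrying GFP under the distal *Oct4* promoter, so that the reporter was shared by the naïve and primed cells. The comparisons asked how the messengers of this pathway differed with the state of the cells and the time in culture. State and medium changed together, so that an effect of the primed state cannot be told apart from one of F/A medium and its activin A. All states came from 1 strain of cells, and since the labels do not say that the 2 libraries of a group came from separate cultures, p-values measure the spread between these libraries, which may be technical. In bulk RNA, fewer cells that express a gene cannot be told apart from less RNA of that gene per cell.

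Nodal and the activins are ligands of the TGF-beta family that bind type I and type II activin receptors, and the activated type I receptor phosphorylates Smad2 and Smad3, which enter the nucleus with Smad4 and act there with partners such as Foxh1. Nodal and Gdf3 need an EGF-CFC coreceptor, of which *Tdgf1* (Cripto) is the member best known in early embryos, whereas activin can signal without it. *Lefty1* and *Lefty2* encode secreted inhibitors of Nodal that are themselves induced by the pathway. In the postimplantation epiblast, from which epiblast stem cells are derived, this pathway is known for sustaining pluripotency and for patterning the mesendoderm.

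*Lefty1* and *Lefty2* are neighbours on chromosome 1 and near copies of each other, which bears on how their reads can be assigned. On GRCm38, *Lefty1* lies at chr1:180935022-180938400 and *Lefty2* at chr1:180893108-180899103, both on the plus strand. Their coding sequences matched at 91.8% of 1104 aligned bases. Of all runs of 50 bases in the *Lefty1* transcript, 17.9% also occurred in another transcript, and so did 4.80% of runs of 100 bases and 0% of runs of 150 bases. For *Lefty2* the shares were 11.6%, 3.08% and 0%. *Tdgf1* shared 12.5%, 4.69% and 0.280% of such runs with its pseudogene *Tdgf1-ps1*. The levels of *Lefty1*, *Lefty2* and *Tdgf1* are therefore uncertain by what the counting did with shared reads. No run of 100 bases was shared for the other 7 genes, and no exon of the 10 genes overlapped an exon of another gene.

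*Nodal* and *Tdgf1*, a ligand and its coreceptor, had levels that moved together across the libraries, and the 250 bases before their annotated starts are shown for that reason. Both were read from RefSeq sequence of GRCm38.p6, and 5 of the 10 genes (*Nodal*, *Tdgf1*, *Acvr1b*, *Acvr2b* and *Inhba*) matched an entry of the promoter table used here. They are written in the direction of transcription, at chr10:61417722-61417971 on the plus strand for *Nodal* and at chr9:110946159-110946408 on the minus strand for *Tdgf1*, with a SMAD box in capitals.
Nodal: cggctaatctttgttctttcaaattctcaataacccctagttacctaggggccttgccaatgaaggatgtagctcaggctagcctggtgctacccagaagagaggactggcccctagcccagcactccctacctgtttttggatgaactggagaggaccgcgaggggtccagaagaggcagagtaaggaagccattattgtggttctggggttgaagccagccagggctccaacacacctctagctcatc
Tdgf1: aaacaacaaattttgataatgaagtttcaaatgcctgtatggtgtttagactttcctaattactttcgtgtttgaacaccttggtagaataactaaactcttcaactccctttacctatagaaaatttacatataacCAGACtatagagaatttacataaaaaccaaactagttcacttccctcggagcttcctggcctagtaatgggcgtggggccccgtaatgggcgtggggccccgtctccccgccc
On either strand, the SMAD box (CAGAC, or GTCTG on the other strand) occurred once in the *Tdgf1* window, 113 bases before the start, and once in that of *Acvr2b*, 233 bases before it, and these letters occurred in 42.2% of all 32851 promoter windows of this length. The letters of the FoxH1 site (TGTGGATT or TGTGTATT, or their reverse complements, none of which contains the letters of the SMAD box) were in none of the 5 windows and in 1.61% of all windows. The other 5 genes were *Lefty1*, *Lefty2*, *Gdf3*, *Foxh1* and *Smad2*.

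Levels are CPM, counts divided by a library's size and scaled to a common total, with library sizes first adjusted by TMM, a method that sets the bulk of genes equal between libraries. Where an SD is given, it is over the 2 libraries of 1 group. Total counts were between 14378051 and 20985136 for the cells of either state and 25646547 for MEFs. A gene without a count could be present at up to 3 counts, which is 0.148 to 0.221 CPM for the cells of either state and 0.128 CPM for MEFs, counting error only. Naïve markers (*Zfp42*, *Esrrb*, *Klf2*, *Klf4*, *Nr0b1* and *Tfcp2l1*) summed to between 2002 and 2422 CPM in naïve and between 85.0 and 196 CPM in primed libraries, and primed markers (*Fgf5*, *Otx2*, *Pou3f1*, *Dnmt3b* and *Zic2*) to between 376 and 389 CPM in naïve and between 814 and 845 CPM in primed libraries, so that both lists followed the labels. Of the fibroblast markers, listed for feeder cells, none of 26 was at 0 in any library. Their sum was 5752 to 16895 CPM over the libraries of both states, against 81073 CPM in MEFs. In primed cells at P15, *Dcn* (347%), *Lum* (210%), *Mmp2* (115%) and *Fbln1* (102%) were above their MEF level, and the other markers were below it. Whether the list measures feeder RNA alone was not tested, and values with feeder counts taken off rest on its median. A gene is said to have risen or fallen where the adjusted p of edgeR's quasi-likelihood test, taken over all genes tested, was under 0.01.

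*Nodal* fell in primed cells at P5 and did not differ between the states beyond its error at P15. In naïve cells it was at 75.8 and 73.5 CPM at P5 and at 63.0 and 56.5 CPM at P15. Primed cells had 32.1 and 28.6 CPM at P5 and 61.1 and 63.8 CPM at P15, so that the primed P5 libraries stood below the other 6 and the P15 libraries of both states overlapped. *Nodal* had no count in MEFs. The fold change at P5 was 2.46-fold lower in primed cells (log2 fold change -1.26, SE 0.063, edgeR adjusted p = 5.85e-17). At P15 the log2 fold change was 0.054 (SE 0.076, edgeR adjusted p = 0.546). With passage, *Nodal* rose 2.06-fold in primed cells (edgeR adjusted p = 6.66e-12) and fell 1.25-fold in naïve cells (adjusted p = 0.00419). The fall in naïve cells lost its call without the second naïve library at P15 (adjusted p = 0.0240), without the filter on low counts (adjusted p = 0.0320) and once feeder counts were taken off (adjusted p = 0.0313). The effect of the primed state differed between P15 and P5 by a log2 fold change of 1.33 (SE 0.10, edgeR adjusted p = 2.78e-12, test of the interaction).

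*Gdf3*, a Nodal-like ligand of the early embryo, had the largest fold change of the 10 genes at P5. In naïve cells it was at 83.1 and 77.2 CPM at P5 and at 89.3 and 85.2 CPM at P15. Primed cells had 7.65 and 8.26 CPM at P5 and 37.9 and 36.8 CPM at P15. Primed libraries were below naïve ones at each passage, by 10.1-fold at P5 (log2 fold change -3.30, SE 0.081, edgeR adjusted p = 1.38e-24) and by 2.34-fold at P15 (log2 fold change -1.23, SE 0.075, adjusted p = 6.35e-17). Its rise with passage in primed cells was 4.69-fold (adjusted p = 3.54e-16), and in naïve cells the log2 fold change was 0.12 (SE 0.058, adjusted p = 0.174). The effects at P15 and P5 differed by a log2 fold change of 2.08 (SE 0.11, adjusted p = 1.42e-15). MEFs had 0.0851 CPM of *Gdf3*.

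*Inhba* encodes the activin A subunit, the same ligand that F/A medium supplies. Its messenger was at 201 and 189 CPM in naïve cells at P5 and at 188 and 174 CPM in naïve cells at P15. Primed cells had 133 and 134 CPM at P5 and 111 and 119 CPM at P15, below all naïve libraries. It was 1.46-fold lower in primed cells at P5 (log2 fold change -0.51, SE 0.041, edgeR adjusted p = 3.08e-12) and 1.57-fold lower at P15 (log2 fold change -0.66, SE 0.064, adjusted p = 2.32e-11). With passage it fell 1.16-fold in primed cells (adjusted p = 3.74e-04), and in naïve cells the log2 fold change was -0.11 (SE 0.053, adjusted p = 0.185). The effects at P15 and P5 did not differ beyond their error (log2 fold change of -0.13, SE 0.076, adjusted p = 0.176).

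The MEF library held more *Inhba* than any other library, 377 CPM. The group means were at 51.7% of that level in naïve cells at P5, 35.4% in primed cells at P5, 48.0% in naïve cells at P15 and 30.5% in primed cells at P15. The median of the 26 fibroblast markers was at 16.8% and 17.0% of its MEF level in naïve libraries at P5, at 14.4% and 12.6% in primed libraries at P5, at 18.7% and 18.8% in naïve libraries at P15 and at 24.5% in both primed libraries at P15. Their summed level was 9576 to 9640 CPM in naïve cells at P5, 5752 to 5907 CPM in primed cells at P5, 16057 to 16895 CPM in naïve cells at P15 and 14048 to 14630 CPM in primed cells at P15. *Inhba* was thus above the median marker in all 8 libraries, yet single markers ranged from 2.51% of the MEF level (*Acta2*, a smooth muscle actin) to 354% (*Dcn*, the matrix proteoglycan decorin), both in a primed library at P15. With the median share of the MEF counts taken off each library, *Inhba* was lower in primed cells at both passages. The log2 fold change was -0.68 at P5 (edgeR adjusted p = 8.36e-07) and -2.18 at P15 (adjusted p = 6.29e-07), and the interaction was -1.48 (adjusted p = 4.23e-05). In primed cells at P15 the share taken off, 24.5% of the MEF level, was most of the *Inhba* level, 30.5%. The value at P15 and the interaction therefore depend on the share chosen, which differed widely between single markers. They do not give the change of *Inhba* in the cells themselves. The part of feeder RNA in the *Inhba* level was not tested further.

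**Figure D1:**
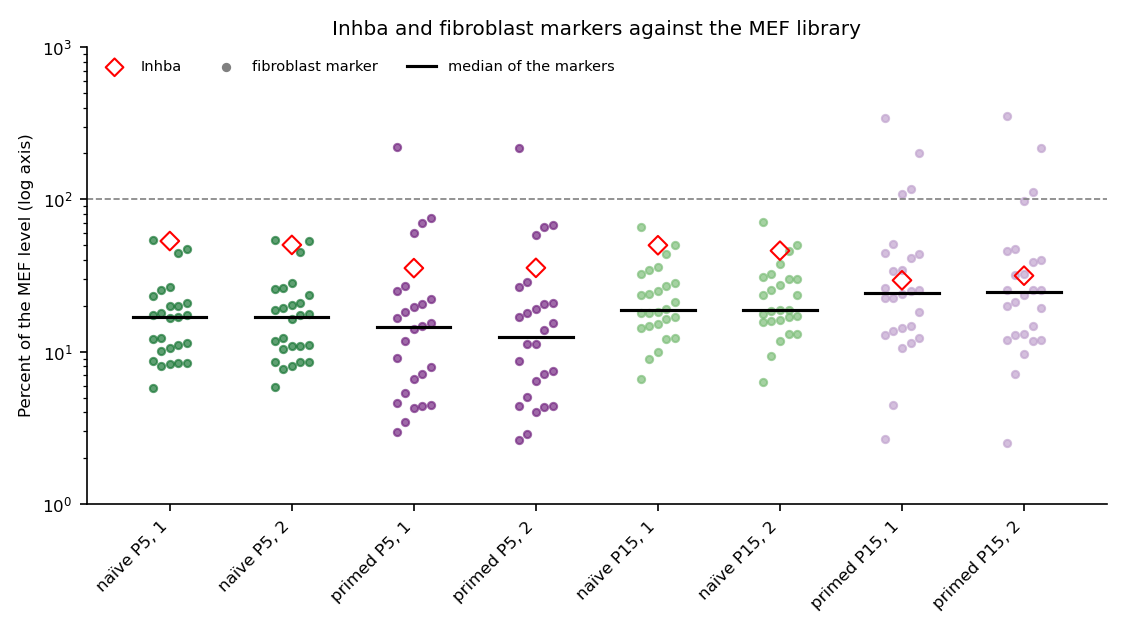
Levels of 26 fibroblast markers (points, with their median as a line) and of *Inhba* (diamonds) in each naïve and primed library, as a percent of the level in the MEF library on a log axis. *Inhba* lies above the median marker in all 8 libraries, and single markers range from 2.51% to 354% of the MEF level.

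*Tdgf1*, the coreceptor of Nodal and Gdf3, had the highest CPM of the 10 genes in naïve cells. It was at 1122 and 1084 CPM in naïve cells at P5, at 229 and 236 CPM in primed cells at P5, at 922 and 878 CPM in naïve cells at P15 and at 667 and 682 CPM in primed cells at P15. The groups did not overlap, with the primed P5 libraries lowest. It was 4.74-fold lower in primed cells at P5 (log2 fold change -2.21, SE 0.035, edgeR adjusted p = 2.48e-29) and 1.33-fold lower at P15 (log2 fold change -0.43, SE 0.054, adjusted p = 1.01e-08). *Tdgf1* rose 2.90-fold with passage in primed cells (adjusted p = 5.14e-20) and fell 1.23-fold in naïve cells (adjusted p = 3.23e-04). The effects at the passages differed by a log2 fold change of 1.80 (SE 0.058, adjusted p = 1.50e-21). There was no *Tdgf1* count in MEFs.

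*Nodal*, *Gdf3* and *Tdgf1* thus had their lowest levels in primed cells at P5. Of the core pluripotency factors, *Pou5f1* (Oct4) was at 712, 211, 756 and 598 CPM and *Nanog* at 382, 93.1, 390 and 256 CPM, as means of naïve P5, primed P5, naïve P15 and primed P15. *Pou5f1* was 3.37-fold lower in primed cells at P5 (edgeR adjusted p = 1.12e-26) and 1.27-fold lower at P15 (adjusted p = 5.41e-07), and *Nanog* was 4.11-fold lower (adjusted p = 3.12e-27) and 1.52-fold lower (adjusted p = 1.35e-11). *Sox2*, another factor of this group, was 2.49-fold lower at P5 (adjusted p = 3.93e-22) and 3.14-fold lower at P15 (adjusted p = 3.07e-24). *Sall4*, also listed with them, was 1.24-fold lower at P5 and 1.15-fold lower at P15. With passage in primed cells, group means rose 2.83-fold for *Pou5f1* and 2.75-fold for *Nanog*. For *Sall4* the mean was 1.08-fold higher at P15, and for *Sox2* it was 1.12-fold lower. Whether the fall and rise of the 3 pathway genes went with that of *Pou5f1* and *Nanog* in the same cells was not tested.

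**Figure D2:**
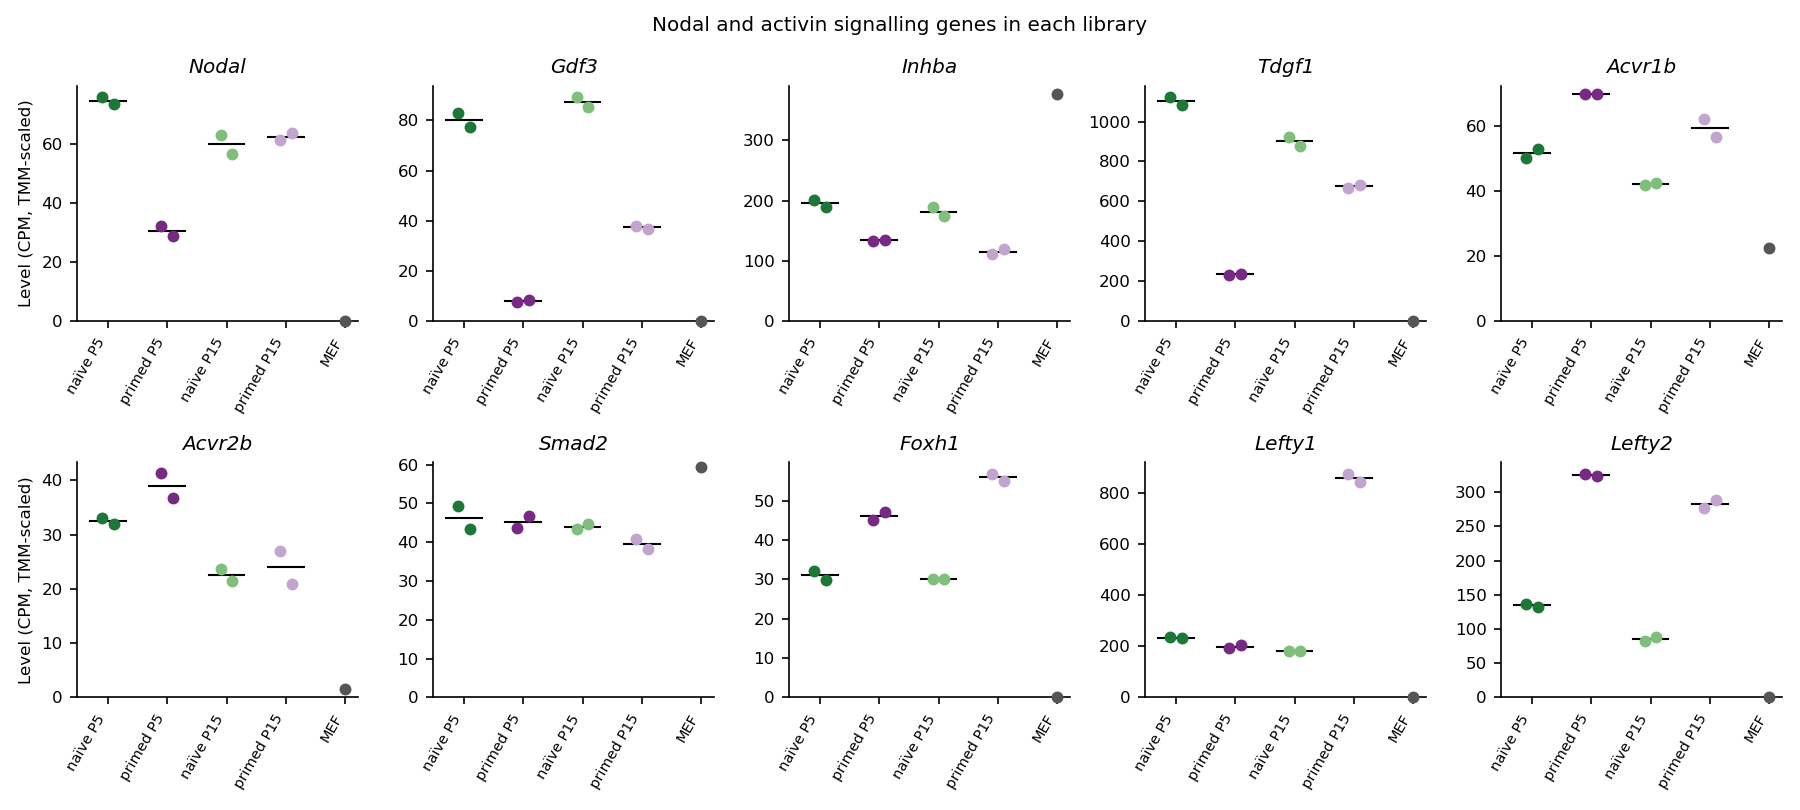
Level of each of the 10 genes in CPM, on a linear axis from 0, in every library (points) with the mean of the 2 libraries of a group (lines), and in the single MEF library. *Nodal*, *Gdf3* and *Tdgf1* are lowest, apart from MEFs, in primed cells at P5, whereas *Lefty1* reaches 861 CPM on average in primed cells at P15.

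The receptor genes differed by less than 2-fold between the states and passages. *Acvr1b*, the type I receptor ALK4, was at 50.3 and 53.0 CPM in naïve and 70.1 and 69.9 CPM in primed cells at P5, and at 41.8 and 42.7 CPM in naïve and 62.1 and 56.7 CPM in primed cells at P15. Primed libraries were above naïve ones at both passages, by 1.35-fold at P5 (log2 fold change 0.47, SE 0.055, edgeR adjusted p = 1.04e-08) and by 1.41-fold at P15 (log2 fold change 0.48, SE 0.080, adjusted p = 2.26e-06). The effects at the passages differed by a log2 fold change of 0.028 (SE 0.095, adjusted p = 0.856). With passage *Acvr1b* fell 1.18-fold in primed cells (adjusted p = 9.22e-04) and 1.22-fold in naïve cells (adjusted p = 0.00857). The fall in naïve cells lost its call without the second naïve library at P5 (adjusted p = 0.0670), the first at P15 (adjusted p = 0.0256) or the second at P15 (adjusted p = 0.021). It was also lost without the filter on low counts (adjusted p = 0.0370), by DESeq2's Wald test (adjusted p = 0.0464) and once feeder counts were taken off (adjusted p = 0.0303), and the fall in primed cells lost it once feeder counts were taken off (adjusted p = 0.138).

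*Acvr2b*, a type II receptor for activins and Nodal, was at 33.1 and 32.0 CPM in naïve and 41.3 and 36.7 CPM in primed cells at P5, and at 23.6 and 21.4 CPM in naïve and 27.0 and 20.96 CPM in primed cells at P15. At P15 the states overlapped. The rise in primed cells at P5 was 1.2-fold (log2 fold change 0.30, SE 0.073, edgeR adjusted p = 6.93e-04), and it lost its call by DESeq2's Wald test (adjusted p = 0.0179), without the filter on low counts (adjusted p = 0.0146), once feeder counts were taken off (adjusted p = 0.0175) and without the first primed library at P5 (adjusted p = 0.0336). At P15 the log2 fold change was 0.084 (SE 0.12, adjusted p = 0.535). Its fall with passage was 1.45-fold in naïve cells (adjusted p = 0.00106, or 0.0119 without the filter on low counts) and 1.63-fold in primed cells (adjusted p = 3.25e-07), and the difference between these, a log2 fold change of -0.19, was within its error (SE 0.14, adjusted p = 0.304). In MEFs *Acvr1b* was at 22.5 CPM and *Acvr2b* at 1.57 CPM.

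*Smad2*, a transducer of the pathway, was the member whose level passed the test in neither the state nor the passage comparisons as fitted, although its passage comparison in primed cells passed under 5 alternatives. It was at 49.3 and 43.3 CPM in naïve and 43.6 and 46.8 CPM in primed cells at P5, and at 43.4 and 44.7 CPM in naïve and 40.7 and 38.3 CPM in primed cells at P15, and MEFs had 59.5 CPM. The states overlapped at P5 and were apart at P15. The log2 fold change was -0.0045 at P5 (SE 0.067, edgeR adjusted p = 0.956) and -0.17 at P15 (SE 0.084, adjusted p = 0.0780). With passage it was -0.071 in naïve cells (SE 0.076, adjusted p = 0.575) and -0.22 in primed cells (SE 0.075, adjusted p = 0.0122). The last value passed the test with DESeq2's size factors (log2 fold change of -0.23, adjusted p = 0.00968), with library size alone (-0.36, adjusted p = 2.30e-04), with a replicate block (-0.22, adjusted p = 0.0045), once feeder counts were taken off (-0.41, adjusted p = 0.00638) and without the first primed library at P15 (-0.27, adjusted p = 0.00357).

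*Foxh1*, the forkhead partner of Smad2 and Smad4, was higher in primed cells at both passages. It was at 32.1 and 29.9 CPM in naïve and 45.2 and 47.1 CPM in primed cells at P5, and at 30.1 CPM in both naïve and 56.9 and 55.0 CPM in primed libraries at P15, with no overlap between the states. The rise was 1.49-fold at P5 (log2 fold change 0.60, SE 0.069, edgeR adjusted p = 5.56e-09) and 1.86-fold at P15 (log2 fold change 0.88, SE 0.084, adjusted p = 1.39e-11). The difference between the passages, 0.30 on the log2 scale (SE 0.11), did not pass the threshold (adjusted p = 0.0282), but did once feeder counts were taken off (0.46, adjusted p = 0.00661). With passage *Foxh1* rose 1.21-fold in primed cells (adjusted p = 0.00303), a call lost without the first primed library at P5 (adjusted p = 0.0965) or the second (adjusted p = 0.0229), by DESeq2's Wald test (adjusted p = 0.0307) and with library size alone (log2 fold change of 0.12, adjusted p = 0.149). In naïve cells the log2 fold change was -0.043 (SE 0.081, adjusted p = 0.763). MEFs had 0.0851 CPM.

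The secreted inhibitors *Lefty1* and *Lefty2* took different courses. *Lefty1* was at 235 and 234 CPM in naïve and 193 and 205 CPM in primed cells at P5, and at 183 CPM in both naïve and 877 and 845 CPM in primed libraries at P15. The primed P15 libraries stood far above the other 6, which lay between 183 and 235 CPM. At P15 *Lefty1* was 4.71-fold higher in primed cells (log2 fold change 2.22, SE 0.058, edgeR adjusted p = 1.74e-28). At P5 it was 1.18-fold lower (log2 fold change -0.20, SE 0.038, adjusted p = 2.67e-05), a call that was lost without TMM scaling (log2 fold change of -0.0018, adjusted p = 0.968) and without the first primed library at P5 (adjusted p = 0.0158). With passage it rose 4.32-fold in primed cells (adjusted p = 1.67e-22) and fell 1.28-fold in naïve cells (adjusted p = 8.42e-05). The effects at the passages differed by a log2 fold change of 2.44 (SE 0.064, adjusted p = 6.04e-24).

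*Lefty2* was at 137 and 132 CPM in naïve and 327 and 323 CPM in primed cells at P5, and at 82.9 and 87.6 CPM in naïve and 277 and 289 CPM in primed cells at P15. Primed libraries were above naïve ones at both passages. The rise was 2.42-fold at P5 (log2 fold change 1.31, SE 0.038, edgeR adjusted p = 8.02e-23) and 3.32-fold at P15 (log2 fold change 1.72, SE 0.063, adjusted p = 1.30e-23), and the 2 differed by a log2 fold change of 0.43 (SE 0.070, adjusted p = 1.202e-05). With passage *Lefty2* fell 1.58-fold in naïve cells (adjusted p = 2.24e-06) and 1.15-fold in primed cells (adjusted p = 1.41e-04), and the latter call was lost once feeder counts were taken off (adjusted p = 0.5996). MEFs had 1.87 CPM of *Lefty1* and 0.0425 CPM of *Lefty2*. The sum of the 2 genes does not depend on which of them a shared read was given to, but it would on whether such reads were dropped or counted for both, which is not given in the sources used here. It was 366 to 372 CPM in naïve and 520 to 529 CPM in primed cells at P5 and 265 to 271 CPM in naïve and 1134 to 1154 CPM in primed cells at P15.

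**Figure D3:**
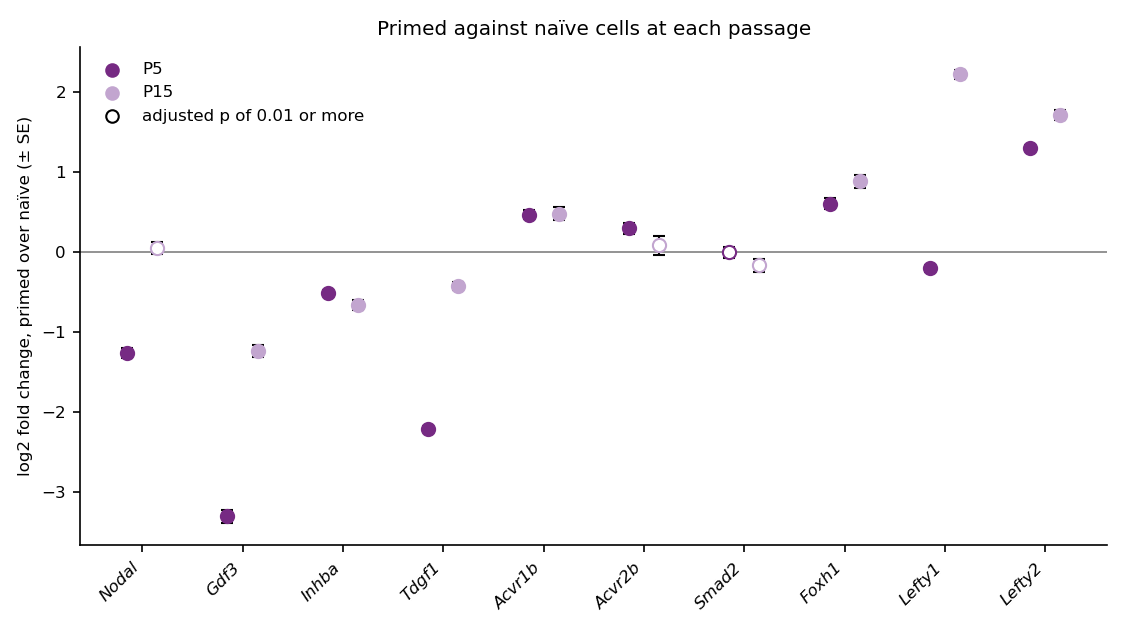
Log2 fold change of primed over naïve cells from edgeR, with an SE derived from its F statistic, for the 10 genes at P5 (dark) and P15 (light). Open points did not reach an adjusted p under 0.01, and *Lefty1* is the gene whose called change is on opposite sides of 0 at the passages, at -0.20 and 2.22.

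At P5, 4 of the 10 genes rose in primed cells, 5 fell and 1 did not pass the test, where of all 16482 genes tested 31.2% rose and 31.1% fell. With a fold change of at least 2 as well, 1 rose and 3 fell, against 13.5% and 8.85% of all genes. At P15, 4 rose, 3 fell and 3 did not pass, against 28.2% and 28.4% of all genes that rose and fell, and with a 2-fold change 2 rose and 1 fell, against 12.2% and 11.0%. The median log2 fold change over the 10 genes was -0.10 at P5 and 0.069 at P15, and over all genes it was 0.0078 and -0.0039. Of the genes that passed the test at P5, 50.1% rose, and with library size alone as the scaling 65.8% did. With feeder counts taken off, 5 of the 10 genes changed at least 2-fold at P15. All 10 genes passed the filter on low counts in each comparison.

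With passage in naïve cells 0 of the 10 genes rose and 6 fell, each by less than 2-fold, where 4.21% of all genes rose and 5.01% fell. Without the filter on low counts 3 of the 10 passed the test. The 6 were *Nodal*, *Lefty1*, *Lefty2*, *Tdgf1*, *Acvr1b* and *Acvr2b*, and the median log2 fold change was -0.29 over the 10 genes. None of the 10 genes rose there at an unadjusted p under 0.05 either, by edgeR (0 genes) or by DESeq2's Wald test (0 genes). In primed cells 5 of the 10 rose with passage and 4 fell, against 24.3% and 22.8% of all genes (51.5% of those that passed rose, or 34.2% with library size alone), and 4 of those that rose, *Nodal*, *Lefty1*, *Tdgf1* and *Gdf3*, rose at least 2-fold. Of all 15957 genes tested there, 1853 passed with a change of at least 2-fold, and 27.4% of these rose. The effect of the primed state was higher at P15 than at P5 in 5 of the 10 genes (*Nodal*, *Lefty1*, *Lefty2*, *Tdgf1* and *Gdf3*) and lower in 0, against 13.3% and 10.8% of all 16926 genes tested (55.0% of those that passed were higher, or 35.2% with library size alone). At an unadjusted p under 0.05 it was lower in 0 of them by edgeR and in 0 by DESeq2's Wald test. These comparisons share libraries, so that a high or low library enters more than 1 of them.

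Per kilobase of exon, which allows levels to be compared between genes, *Tdgf1* was highest in naïve cells with 421 ± 10.2 CPM per kilobase at P5 and 343 ± 11.9 at P15 (SD, n = 2). In primed cells at P5 the highest was *Lefty2* with 125 ± 1.05 CPM per kilobase, followed by *Lefty1* with 113 ± 4.90 and *Tdgf1* with 88.8 ± 1.93. The order of *Lefty2* and *Lefty1* there may depend on how their shared reads were counted. At P15 *Lefty1* led with 490 ± 13.1 CPM per kilobase, ahead of *Tdgf1* with 257 ± 4.0 and *Lefty2* with 108 ± 3.36. *Nodal* itself was at 35.6 ± 0.779 CPM per kilobase in naïve cells at P5, 14.5 ± 1.18 in primed cells at P5, 28.5 ± 2.20 in naïve cells at P15 and 29.8 ± 0.905 in primed cells at P15. *Smad2* was the lowest of the 10 genes in 3 of the 4 groups, between 4.50 and 5.27 CPM per kilobase, and *Gdf3* was lowest in primed cells at P5 with 3.28 ± 0.178. Neighbours in the order differed by more than the sum of their SDs, except *Gdf3* and *Inhba* in naïve cells at P5 and *Nodal* and *Inhba* in naïve cells at P15. With the length of the longest transcript in place of all exons, *Gdf3* came before *Nodal* in naïve cells at P5, at 37.7 against 35.6 CPM per kilobase.

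The level of *Lefty1* over that of *Lefty2*, per kilobase, was 2.55 and 2.64 in naïve libraries at P5, 0.877 and 0.943 in primed libraries at P5, 3.27 and 3.11 in naïve libraries at P15 and 4.71 and 4.34 in primed libraries at P15. By this measure *Lefty1* was the higher of the 2 in 6 of 8 libraries, and *Lefty2* in both primed libraries at P5. In those 2 libraries the ratio was close to 1. How reads shared by the 2 genes were counted is not given, so that their order there is uncertain. With the longest transcript in place of all exons, *Lefty1* was at 123 and *Lefty2* at 131 CPM per kilobase in primed cells at P5. The level of *Tdgf1* over that of *Nodal* was 11.8 in both naïve libraries at P5, 5.70 and 6.60 in primed libraries at P5, 11.7 and 12.4 in naïve libraries at P15 and 8.73 and 8.55 in primed libraries at P15. *Lefty1* over *Nodal*, an inhibitor against its ligand, was 3.75 ± 0.0754 in naïve and 7.86 ± 0.975 in primed cells at P5 and 3.66 ± 0.295 in naïve and 16.4 ± 0.938 in primed cells at P15 (SD, n = 2). *Lefty2* over *Nodal* was 1.44 ± 0.00290 in naïve and 8.62 ± 0.627 in primed cells at P5 and 1.15 ± 0.133 in naïve and 3.63 ± 0.00226 in primed cells at P15. In primed libraries both inhibitors were higher against *Nodal* than in any naïve library. These ratios are descriptions and were not tested.

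Among the 10 genes, the highest Pearson correlations of log2(CPM + 1) over the 8 naïve and primed libraries were 0.984 for *Tdgf1* and *Gdf3*, 0.970 for *Nodal* and *Tdgf1* and 0.954 for *Lefty2* and *Acvr1b*, and the lowest was -0.971 for *Foxh1* and *Inhba*. *Lefty1* and *Lefty2* had a correlation of 0.489. Of 10780 genes with at least 10 CPM in the highest group mean, those most like *Nodal* were *Nup50* (0.991), *Terf1* (0.987), *Smc1a* (0.983), *Ubr7* (0.982) and *Cdo1* (0.980). Those most like *Lefty2* were *Xdh* (0.998), *Prom1*, *Trim56*, *Ddx60* and *Tgfbr3* (each 0.997). The points share 4 groups of 2 libraries, so that these values are descriptions of the group pattern.

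Of 44 further genes of the pathway, 40 passed the filter on low counts at each passage, and *Gdf1*, *Inhbc*, *Inhbe* and *Acvr1c* did not. At P5, 22 rose in primed cells and 12 fell, 11 and 2 of them by at least 2-fold, where 31.2% and 31.1% of all genes rose and fell and 13.5% and 8.85% did so by at least 2-fold. The share that fell was thus close to that of all genes, and the median log2 fold change was 0.26. At P15, 23 rose and 8 fell, 14 and 1 of them by at least 2-fold, with a median of 0.45, against 28.2% and 28.4% of all genes and 12.2% and 11.0% at 2-fold. All 8 genes listed as targets of Nodal rose at least 2-fold at both passages, and those other than *Otx2* mark the mesendoderm or the primitive streak. The targets were *Gsc*, *Eomes*, *Mixl1*, *Foxa2*, *Lhx1*, *T*, *Fgf8* and *Otx2*, and their median log2 fold change was 4.46 at P5 and 5.68 at P15. *Otx2* also stands in the list of primed markers.

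*Eomes*, a T-box factor, was at 6.45 ± 0.328 CPM in naïve and 39.1 ± 4.59 CPM in primed cells at P5 (SD, n = 2), 6.06-fold higher, and at 4.39 ± 0.244 and 55.1 ± 3.70 CPM at P15, 12.5-fold higher. *Gsc*, a homeobox gene of the organizer, rose 24.2-fold at P5 and 34.0-fold at P15, and *T* (brachyury) rose 84.0-fold and 109-fold. *Otx2* rose 6.50-fold at P5 and 6.92-fold at P15, although it fell with passage in both states, by 2.20-fold in naïve cells (edgeR adjusted p = 1.5e-05) and 2.07-fold in primed cells (adjusted p = 2.54e-15). *Fgf8*, a growth factor of the streak, rose 14.6-fold at P5 and 79.7-fold at P15. *Mixl1* was at least 16.9-fold higher at P5, counted against a level of 3 counts, and 19.0-fold higher at P15. *Foxa2* was 77.6-fold higher at P5, and at P15 it stood at 0.202 ± 0.0767 CPM in naïve and 87.7 ± 1.88 CPM in primed cells. *Lhx1* rose 203-fold at P5 and at least 339-fold at P15.

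Markers of endoderm, a cell type in which *Foxa2* and *Lhx1* are also known, rose in primed cells together with the target genes. Of 10 endoderm markers, 7 were tested at P5 and 8 at P15, and all of those rose, 6 and 8 of them by at least 2-fold. Of all genes, 31.2% rose at P5 and 28.2% at P15, and 13.5% and 12.2% did so by at least 2-fold. *Sox17*, an endoderm transcription factor, rose 52.7-fold at P5 and 37.5-fold at P15, and *Foxa1* rose 20.6-fold and 21.04-fold, which is within the range of the target genes. In primed libraries *Sox17* was between 15 and 29.2 CPM and *Foxa1* between 18.3 and 21.4 CPM. *Afp* and *Ttr*, which mark visceral endoderm, had at most 1 count in any naïve or primed library. Of the same list, *Gata4* had mean levels of 5.03 CPM in naïve and 35.7 CPM in primed cells at P5. *Gata6* had 5.95 and 24.4 CPM there, and *Sox7* had 1.81 and 12.3 CPM. At P15 the levels were 2.44 and 6.85 CPM for *Gata4*, 5.27 and 18.3 CPM for *Gata6* and 0.835 and 10.7 CPM for *Sox7*. *Apoa1* had 15 counts in each primed library at P15 and 0 and 1 in the naïve ones. Whether visceral endoderm cells were present was not tested. The summed level of the 10 markers was between 66.4 and 100 CPM in naïve and between 256 and 313 CPM in primed libraries, and most of it came from *Dab2* and *Pdgfra*, which MEFs also hold at 165 and 200 CPM. The part of endoderm cells in the target gene levels was not tested.

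Among genes that oppose the pathway, *Cer1*, a secreted antagonist of Nodal, had no count in 3 naïve libraries and 1 count in the other, and was at 209 ± 0.705 CPM in primed cells at P5 and 237 ± 0.845 CPM at P15 (SD, n = 2), at least 1402-fold and at least 1074-fold higher than 3 counts in a naïve library. *Cer1* was listed with 6 other antagonists, of which *Fst* (follistatin), *Fstl1*, *Fstl3* and *Dand5* are secreted and *Ncln* and *Nomo1* are membrane proteins of the endoplasmic reticulum. Of these 6, *Fst* and *Nomo1* fell at P5 (log2 fold changes of -0.42 and -0.74, edgeR adjusted p = 9.32e-06 and 7.95e-15), and at P15 *Fstl1* and *Ncln* rose (0.28 and 0.49, adjusted p = 2.10e-05 and 4.42e-08) and *Nomo1* fell (-0.40, adjusted p = 4.59e-06). MEFs held 3418 CPM of *Fstl1* and 140 CPM of *Ncln*. At P15 *Fstl1* was at 20.8% of its MEF level in naïve and 25.4% in primed cells. The median fibroblast marker was there at 18.7% and 18.8% in naïve and 24.5% in primed libraries. The part of feeder RNA in the rise of *Fstl1* was not tested. *Smad7*, an intracellular inhibitor of the receptors, was at 104 ± 3.24 CPM in naïve and 38.2 ± 0.189 CPM in primed cells at P5, 2.73-fold lower (edgeR adjusted p = 8.12e-20), and 1.42-fold lower at P15 (adjusted p = 1.64e-08). Of the 13 intracellular inhibitors, 4 rose and 8 fell at P5, and 4 rose and 5 fell at P15, where 31.2% and 31.1% of all genes rose and fell at P5 and 28.2% and 28.4% at P15.

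Of the other ligands, *Inhbb*, the activin B subunit, was at 81.8 ± 0.920 CPM in naïve and 131 ± 1.03 CPM in primed cells at P5 and at 69.6 ± 0.809 and 234 ± 11.2 CPM at P15 (SD, n = 2). It rose 1.60-fold at P5 (edgeR adjusted p = 1.15e-14) and 3.37-fold at P15 (adjusted p = 2.64e-23), whereas *Inhba* fell at both passages. The level of *Inhbb* over that of *Inhba*, per kilobase, went from 0.630 ± 0.0189 in naïve to 1.47 ± 0.0156 in primed cells at P5 and from 0.578 ± 0.0404 to 3.07 ± 0.298 at P15. MEFs held 377 CPM of *Inhba* and 30.1 CPM of *Inhbb*. The part of feeder RNA in this ratio was not tested, and the change of *Inhba* in the cells themselves is not known. *Inha*, the inhibin alpha subunit that opposes activin, was low, with 3.05 ± 0.397 CPM in naïve and 5.12 ± 0.991 CPM in primed cells at P5, and rose 1.68-fold at P5 (adjusted p = 0.00206) and 2.54-fold at P15 (adjusted p = 6.51e-05). *Gdf1* had no count in any library, and all of its exon bases lie within exons of *Cers1* on the same strand, so that reads of the 2 genes cannot be told apart there.

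The coreceptor genes besides *Tdgf1* rose. *Cfc1*, the other EGF-CFC gene of the mouse, was at 11.9 ± 0.259 CPM in primed cells at P5 and 7.96 ± 2.0 CPM at P15 (SD, n = 2), and had at most 4 counts in a naïve library. At P15 it was at least 36.0-fold higher than 3 counts in a naïve library. *Tgfbr3* (betaglycan), a coreceptor for inhibin and TGF-beta, rose 3.61-fold at P5 (edgeR adjusted p = 6.18e-22) and 5.78-fold at P15 (adjusted p = 9.18e-24). *Smad3*, the partner transducer of *Smad2*, was at 55.4 ± 1.03 CPM in naïve and 101 ± 1.07 CPM in primed cells at P5, 1.82-fold higher (adjusted p = 7.96e-16), and 1.91-fold higher at P15 (adjusted p = 1.33e-13). The transducers as a list had 3 genes that rose and 1 that fell out of 5 at each passage. Of all genes, 31.2% rose and 31.1% fell at P5, and 28.2% and 28.4% did so at P15.

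The proconvertases that cleave the Nodal precursor moved in opposite directions. *Pcsk6* (PACE4) was at 38.7 ± 0.0736 CPM in naïve and 5.89 ± 0.173 CPM in primed cells at P5 and at 41.9 ± 4.29 and 3.60 ± 0.217 CPM at P15 (SD, n = 2). It was 6.58-fold lower in primed cells at P5 (edgeR adjusted p = 7.45e-20) and 11.7-fold lower at P15 (adjusted p = 5.27e-23). *Furin* was 1.94-fold higher at P5 (adjusted p = 7.12e-18) and 2.22-fold higher at P15 (adjusted p = 2.56e-16). The level of *Furin* over that of *Pcsk6*, per kilobase, was 1.19 ± 0.0299 in naïve and 15.2 ± 0.168 in primed cells at P5, and 0.972 ± 0.188 and 25.0 ± 3.81 at P15. Both are also made by MEFs, at 220 CPM for *Furin* and 37.5 CPM for *Pcsk6*.

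**Figure D4:**
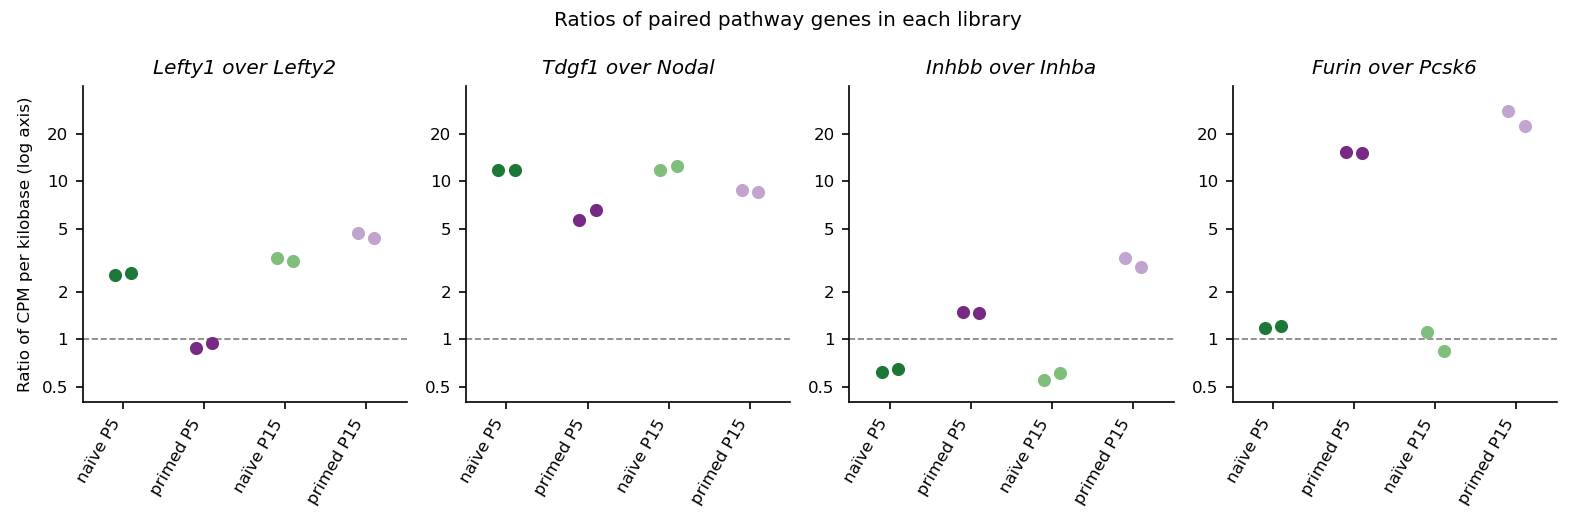
Ratios of levels per kilobase in each naïve and primed library (points) on log axes, for *Lefty1* over *Lefty2*, *Tdgf1* over *Nodal*, *Inhbb* over *Inhba* and *Furin* over *Pcsk6*, with a dashed line at equal levels. *Lefty1* over *Lefty2* is below 1 in both primed libraries at P5, at 0.877 and 0.943, and *Furin* over *Pcsk6* is above 15 in all primed libraries. How reads shared by *Lefty1* and *Lefty2* were counted is not given.

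Of 7 genes of the TGF-beta branch, whose ligands use other receptors but the same Smad2 and Smad3, 6 rose and 1 fell at P5 and 4 rose and 3 fell at P15, against 31.2% and 31.1% of all genes at P5 and 28.2% and 28.4% at P15. *Tgfb1* rose 2.42-fold at P5 and 1.95-fold at P15. *Tgfb2* was at 10.8 ± 0.529 CPM in naïve and 44.1 ± 2.46 CPM in primed cells at P5 and at 26.1 ± 1.69 and 21 ± 1.04 CPM at P15 (SD, n = 2), 4.09-fold higher in primed cells at P5 (edgeR adjusted p = 1.32e-18) and 1.24-fold lower at P15 (adjusted p = 0.00799). *Tgfb3* fell 1.56-fold at P5 (adjusted p = 6.55e-08) and 2.79-fold at P15 (adjusted p = 9.97e-18). In MEFs *Tgfb2* was at 83.6 CPM and *Tgfb3* at 430 CPM, above all other libraries, and the part of feeder RNA in these changes was not tested.

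**Figure D5:**
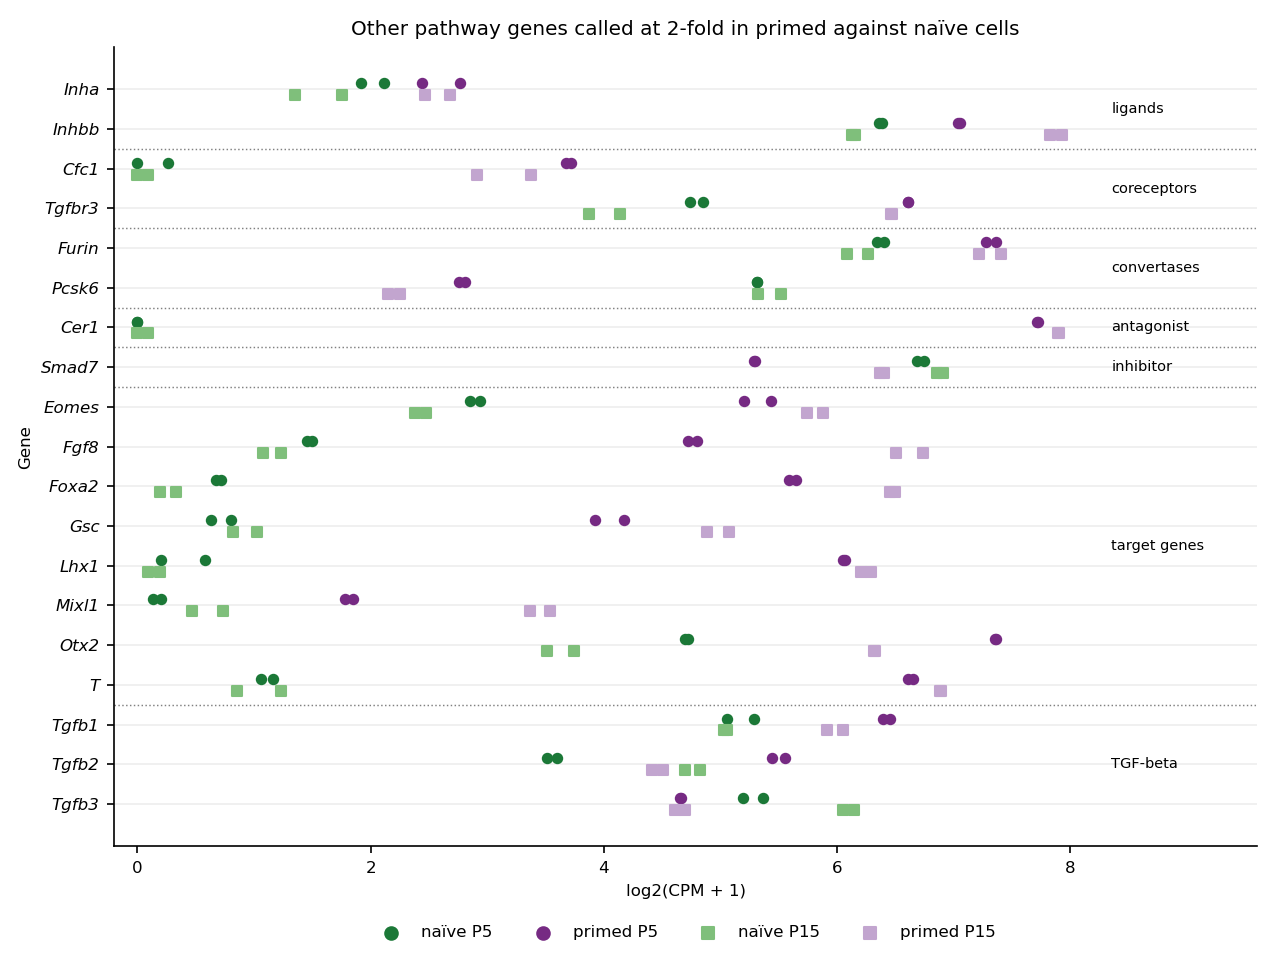
Level as log2(CPM + 1) in each naïve and primed library (points, circles at P5 and squares at P15) of the 19 further pathway and TGF-beta genes that changed at least 2-fold at P5 or P15. The 8 target genes and *Cer1* lie further to the right in all primed libraries than in any naïve library, and *Pcsk6* and *Smad7* further to the left.

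With passage, 2 of 37 further pathway genes tested rose in naïve cells and 6 fell, against 4.21% and 5.01% of all genes. In primed cells 15 of 40 rose and 10 fell, against 24.3% and 22.8% of all genes, so that the rises in naïve and the falls in primed cells were close to the shares of all genes. The target genes that rose with passage in primed cells were 6 of 8, with *Fgf8* 3.74-fold higher at P15 (edgeR adjusted p = 2.76e-17) and *Mixl1* 3.95-fold (adjusted p = 7.68e-10). *Smad7* rose 2.15-fold (adjusted p = 1.05e-13) and *Inhbb* 1.79-fold (adjusted p = 4.82e-13). The effect of the primed state was higher at P15 than at P5 in 15 of 41 genes tested and lower in 3 (13.3% and 10.8% of all genes), with a median difference of 0.30 on the log2 scale, against -6.5e-05 over all genes.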

How the data were processed

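Reads of poly(A) RNA, from an Illumina HiSeq, were trimmed (Cutadapt), mapped by HISAT2 to mm10, which is GRCm38, and assigned to Ensembl genes by featureCounts. The values deposited by the authors are raw counts for each gene and library. How strand and multiply aligned reads were counted is not given in the sources used here. Names and positions came from GENCODE M21, which named 54165 of the 54232 genes, and 92 spike-in entries with 0 counts were left out. Groups and passages came from the sample titles.

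Computations used R 4.3.3, edgeR 4.0.16, limma 3.58.1 and DESeq2 1.42.0. Each comparison was fitted by edgeR's quasi-likelihood test on its own libraries (4, or all 8 naïve and primed for the interaction), with TMM scaling, for genes that had at least 10 counts in 2 or more libraries. Adjustment was by Benjamini and Hochberg over all genes tested, and the thresholds were an adjusted p of 0.01 and a 2-fold change. The number tested was 16482 at P5, 15733 at P15, 15683 and 15957 with passage in naïve and primed cells and 16926 for the interaction. The biological coefficient of variation was between 3.26% and 4.79%. Replicates differed by more than counting noise (chi-square per gene between 2.10 and 3.28). The SE of a log2 fold change was its absolute value divided by the square root of the F statistic of edgeR's test. MEFs entered no fit. CPM used TMM factors over all 9 libraries, and folds are ratios of group means of these CPM, so that they can differ slightly from 2 to the power of the fitted log2 fold change, whose scaling is that of each fit. The code was tested on simulated data. Total counts limit precision to about 3 counts for a gene without counts.

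The genes and lists were chosen with earlier results of these data known. Some items, 1 gene of the pathway lists among them, are not reported here, and the list counts leave that gene out. All 10 genes are named. Of the pathway and TGF-beta lists, genes were named that passed both thresholds at P5 or P15 with at least 1 CPM in a group mean, at most 20, as were the 5 genes whose log2(CPM + 1) correlated best with *Nodal* and the 5 with *Lefty2*. *Smad3*, the antagonists other than *Cer1*, the endoderm markers, *Gdf1*, *Pou5f1*, *Nanog*, *Sox2* and *Sall4* were named after their values were seen. Alternatives were DESeq2's size factors and Wald test, library size alone, no filter, a replicate block, feeder counts taken off, all 8 libraries in 1 fit, each library left out, transcript length for exon length, and, added after seeing the data, crossed pairs of replicates.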

Additional observations from a re-analysis of the deposited data

Results flagged for a closer look

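The effect of the primed state, as a log2 fold change over naïve cells, differed between the passages by the test of the interaction (edgeR, adjusted p under 0.01) for 5 of the 10 signalling genes and for 9 of the 19 pathway and TGF-beta genes that changed at least 2-fold. Of all genes, the effect was higher at P15 in 13.3% and lower in 10.8%. The 19 genes were chosen by their change at P5 or P15 in the same libraries, so their count cannot be set against these shares. Among the 10 signalling genes the difference, P15 minus P5, was 1.33 for *Nodal*, 2.44 for *Lefty1*, 0.43 for *Lefty2*, 1.80 for *Tdgf1* and 2.08 for *Gdf3*. Among other pathway genes it was 1.04 for *Inhbb*, 0.65 for *Tgfbr3*, -0.86 for *Pcsk6* and 0.92 for *Smad7*. Of the target genes it was 1.03 for *Eomes*, 2.40 for *Foxa2* and 2.41 for *Fgf8*, and the value for *Foxa2* rests on 2 and 4 counts in the naïve libraries at P15. In the TGF-beta branch it was -2.37 for *Tgfb2* and -0.86 for *Tgfb3*. For *Nodal*, *Tdgf1* and *Gdf3* the primed P5 libraries were the low ones, for *Lefty1* and *Fgf8* the primed P15 libraries were the high ones, and for *Tgfb2* both the primed P5 libraries and the naïve P15 libraries were above the naïve P5 libraries. The cause of these differences was not tested.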

How the results depend on the processing

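The number of genes that passed a threshold stayed within 1.5 times the reported value in 199 of 210 alternatives, and the fold changes of the 10 genes kept direction and call in 327 of 350. With each library left out in turn, 143 of 144 counts and 223 of 240 fold changes did so. Exceptions are given here or beside the gene in the results, and their cause was not tested unless stated. With library size alone the median log2 fold change of all genes was 0.21 at P5, 0.10 at P15 and -0.13 with passage in primed cells, and values under this setting are to be read against these shifts. It gave *Smad2* a log2 fold change of 0.20 at P5, turned the interaction of *Acvr1b* to -0.086 and left 2 other pathway genes with a 2-fold interaction (5 reported). With feeder counts taken off, *Smad2* was at 0.026 at P5, and the 2-fold counts were 5 of the 10 genes at P15 (3 reported) and, of other pathway genes, 4 with passage in naïve cells (1 reported), 9 with passage in primed cells (5 reported) and 10 for the interaction (5 reported). Passage in naïve cells was the comparison most open to the settings, with 1446 of all genes, 6 of the 10 genes and 8 other pathway genes past an adjusted p of 0.01, against 551, 3 and 5 without a filter on low counts and 920 of all genes with feeder counts taken off. The deviations of same-numbered libraries had weak correlations, 0.12 and 0.11 between the passages of 1 state and between -0.15 and -0.059 across the states. These values do not settle whether the numbers pair libraries. A replicate block gave 2783 of all genes and 13 other pathway genes with passage in naïve cells. Of the 10 genes it gave 9 at P5, 7 at P15, 10 with passage in primed cells and 5 for the interaction. Crossed pairs at P15, chosen after seeing the data, gave 9477 of all genes and 7 of the 10, against 8899 and 7 reported. With a library left out, the log2 fold change ran from -0.12 to 0.071 for *Smad2* at P5, from -0.052 to 0.11 for *Nodal* at P15, from -0.085 to 0.28 for *Acvr2b* at P15, from -0.098 to 0.0036 for *Foxh1* and from -0.17 to 0.020 for *Smad2* with passage in naïve cells, and from -0.035 to 0.10 for the interaction of *Acvr1b*, none of which passed the test as reported. The count of other pathway genes with a 2-fold interaction ran from 3 to 5, with 3 without the first primed library at P15. With longest transcripts or library size alone, 46 of 80 levels moved by more than the SD of their libraries. The depth, at most 0.221 CPM for 3 counts, limited *Cer1*, *Cfc1*, *Foxa2*, *Lhx1* and *Mixl1* in naïve cells and none of the 10 genes.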
